A study of Mus musculus with 6 samples.

Results

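The genes described here encode the fibroblast growth factors (FGFs), their receptors, and the proteins by which cells limit and carry out the response to them. They were measured in the retinal pigmented epithelium (RPE), the layer of pigmented cells behind the neural retina, at day 15.5 of mouse gestation (E15.5). The 37 genes (22 ligands, 5 receptors and 10 feedback targets) are those of a fixed list of symbols. Each was measured by the probe sets annotated with that symbol alone, and by the brightest of them on average where there were several. All 37 were found among the 19938 genes that have such a probe set. RNA was compared between 3 arrays labelled control and 3 arrays labelled mutant. By these labels the control is *Pax6loxP/loxP* and the mutant *Pax6loxP/loxP;DctCre*. The labels do not settle which arrays came from which genotype, because values given below run against them. Under either naming, all 6 samples carried the *loxP*-flanked *Pax6* allele on a C57BL/6J background. Control embryos were littermates of the mutants, and 300 ng of total RNA was used for each array. In the mutant the *Dct* promoter, active in RPE progenitors, drives Cre and removes the *Pax6* exons that encode the paired domain, but transcripts without this domain remain, so the line lacks the full-length protein and not every product of *Pax6*. RPE of several embryos was pooled by how strongly it was pigmented, and each tube counted as 1 biological repeat.

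Secreted FGFs bind receptor tyrosine kinases at the cell surface together with heparan sulfate, and the receptors signal through RAS and the kinase ERK. ERK activity then switches on a group of genes that includes the Etv transcription factors and the inhibitors Dusp6, Sprouty and Spred, so that their transcripts are often used as a readout of the pathway. In the early eye, FGF can turn RPE into neural retina, as was shown with added FGF in chick embryos and with *Fgf9* expressed in the RPE of mice.

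The label of the tissue was checked with 12 RPE genes. Of these, 9 had a signal above the array's median on all 6 arrays, and *Rpe65*, *Best1* and *Lrat*, genes of the visual cycle and of the mature RPE, were below it on all 6. Markers of other tissues were also above the array's median on all 6 arrays: all 8 of mesenchyme, all 6 of endothelium and all 5 of skeletal muscle, 6 of 8 of retinal progenitors, 5 of 7 of surface epithelium, 5 of 10 of lens, 3 of 5 of melanocytes and 2 of 8 of retinal neurons. In such bulk RNA, fewer cells of a type and less RNA per cell cannot be told apart. *Pax6* had log2 signals of 9.15, 9.02 and 9.22 in the 3 control-labelled arrays and 9.0, 8.97 and 8.74 in the 3 mutant-labelled arrays, and where its probes lie relative to the deleted exons was not checked. Array medians lay between 4.86 and 4.93 and arrays correlated at 0.992 to 0.995. Every log2 difference below subtracts the control-labelled mean from the mutant-labelled mean. This direction is opposite to the one in the authors' table of pooled group values, whose means were within 0.1 of those of the arrays for 89 of 90 matched entries with the group names exchanged and for 0 as labelled. With the names exchanged, every sign below would be the opposite. This holds for the pigment genes of the RPE too. The melanin enzymes *Tyrp1* and *Tyr* and the melanosome protein *Pmel* differed by 0.94 (SE 0.12, adjusted p = 0.02), 0.67 (SE 0.17, adjusted p = 0.34) and 0.68 (SE 0.11, adjusted p = 0.06). The paper reports lower transcripts of *Tyrp1*, *Tyr* and *Pmel* (there called *Si*) in the mutant, on the arrays and by quantitative PCR. That is opposite to the signs given here. None of the 100 entries in the authors' table is a gene of the FGF list. With 3 arrays in each group, precision is limited throughout.

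Promoter sequences of 4 genes are shown because they belong to the 2 genes whose mutant-labelled arrays all lay below the control-labelled ones (*Fgf14* and *Fgfr3*), and to a receptor and a feedback target that hold short motifs of factors relevant to the RPE and to ERK (*Fgfrl1* and *Spry1*). Each is the 250 bases before the annotated start in RefSeq on GRCm38.p6, read 5′ to 3′ on the gene's strand. The capitals mark a motif: CACGTG is an E-box that MITF, the pigment cell transcription factor, can bind. MITF can also bind the E-box CATGTG, which reads CACATG on the opposite strand. The last motif, CCGGAAG, which reads CTTCCGG on the opposite strand, is a core bound by ETS factors, the family of Etv1, Etv4 and Etv5. The stretches lie at chr14:124192547-124192796 on the minus strand for *Fgf14*, and on the plus strand at chr5:33721474-33721723 for the more upstream start of *Fgfr3*, chr5:108693979-108694228 for *Fgfrl1* and chr3:37639697-37639946 for *Spry1*.
Fgf14: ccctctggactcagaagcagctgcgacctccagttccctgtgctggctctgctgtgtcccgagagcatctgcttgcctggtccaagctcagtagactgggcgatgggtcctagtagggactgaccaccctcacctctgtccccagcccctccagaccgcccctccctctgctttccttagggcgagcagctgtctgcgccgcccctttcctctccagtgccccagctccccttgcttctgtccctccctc
Fgfr3: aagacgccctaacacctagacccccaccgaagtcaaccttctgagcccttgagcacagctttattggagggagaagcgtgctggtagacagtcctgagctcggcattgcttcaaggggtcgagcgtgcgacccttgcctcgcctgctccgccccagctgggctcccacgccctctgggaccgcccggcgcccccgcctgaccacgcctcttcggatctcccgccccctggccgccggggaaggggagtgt
Fgfrl1: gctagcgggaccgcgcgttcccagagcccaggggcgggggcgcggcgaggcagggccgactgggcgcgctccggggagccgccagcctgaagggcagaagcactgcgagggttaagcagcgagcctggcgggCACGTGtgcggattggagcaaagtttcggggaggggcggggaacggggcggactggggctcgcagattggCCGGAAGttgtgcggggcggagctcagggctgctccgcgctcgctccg
Spry1: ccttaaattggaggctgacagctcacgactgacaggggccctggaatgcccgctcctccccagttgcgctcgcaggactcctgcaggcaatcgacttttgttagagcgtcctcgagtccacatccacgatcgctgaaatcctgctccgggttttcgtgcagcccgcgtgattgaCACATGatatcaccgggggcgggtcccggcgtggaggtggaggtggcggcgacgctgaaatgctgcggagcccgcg
No motif of the 3 was found in the *Fgf14* and *Fgfr3* stretches. In *Fgfrl1*, CACGTG lay at positions -118 to -113 from the start, where negative positions count bases before it, and CCGGAAG at positions -48 to -42. In *Spry1*, the CATGTG motif lay on the opposite strand at positions -76 to -71. RefSeq promoters of 300 bases, from 250 before to 50 after the start, were at hand for 27 of the 37 genes, with 36 starts. On both strands, CACGTG was in 4 of these 36 (*Fgf21*, *Fgf6*, *Fgfr2* and *Fgfrl1*) and in 7.15% of all 32851 promoters. CATGTG was in 2 (*Etv1* and *Spry1*) and in 14.2% of all. CCGGAAG was in 1 (*Fgfrl1*) and in 8.86% of all. The motifs do not overlap each other in these stretches, and a match describes only the letters.

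Across the pathway, no ligand, receptor or feedback target passed the test between the groups. Of the 37 genes, 0 were higher and 0 lower at an adjusted p under 0.05 (limma, Benjamini-Hochberg adjustment over all 23410 probe sets with a gene symbol), where 0.331% of all genes were higher and 0.0953% lower. At an unadjusted p under 0.05, 1 of 37 was higher (*Fgf12*), beside 3.52% of all genes, and 2 were lower (*Fgf14* and *Fgfr3*), beside 2.81%. The methods' t-test gave 2 at an unadjusted p under 0.05 and 0 after adjustment. The 3 arrays of each group did not overlap for 2 genes in the higher direction (*Fgf12* and *Fgfr1*), beside 6.23% of all genes, and for 2 in the lower direction (*Fgf14* and *Fgfr3*), beside 5.17%. Log2 differences were under 0.2 in size for 34 of the 37 genes, or 91.9%, and for 94.2% of all genes. The median log2 difference was -0.06 for the ligands, -0.01 for the receptors and 0.01 for the feedback targets, beside 0.00 for all genes.

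**Figure D1:**
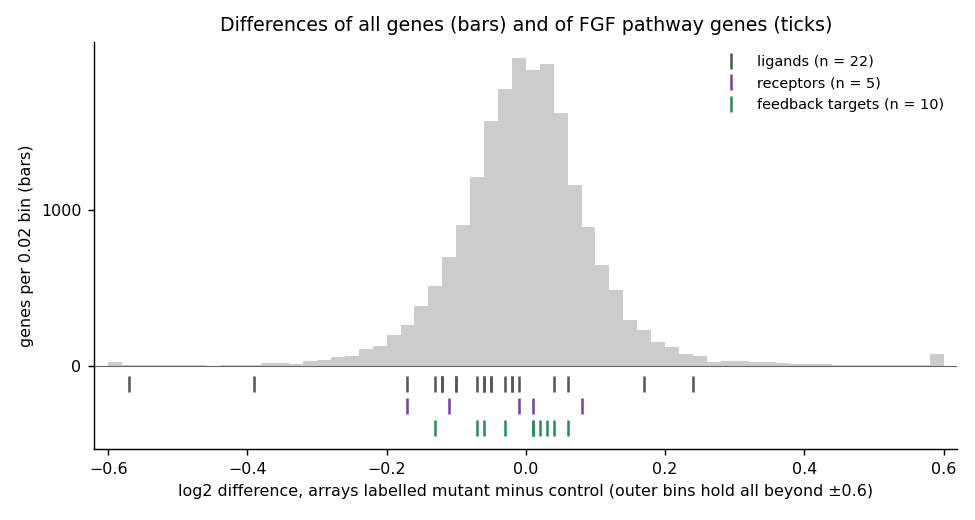
Log2 differences, mutant-labelled minus control-labelled arrays, of all 19938 genes as grey bars (genes per 0.02 bin) and of the 22 ligands, 5 receptors and 10 feedback targets as ticks below. The feedback targets lie between -0.13 and 0.06, and the ligands reach -0.57 (*Fgf15*) and 0.24 (*Fgf12*).

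Among the ligands, 8 of 22 had a signal above the array's median on all 6 arrays: *Fgf2*, *Fgf7*, *Fgf8*, *Fgf9*, *Fgf11*, *Fgf13*, *Fgf15* and *Fgf18*. Another 10 were below it on all 6, and *Fgf3*, *Fgf12*, *Fgf14* and *Fgf22* were above it on some arrays. A probe set's level depends on its probes, so the signals of different genes are not ranked here. Where a gene is given with 3 values and then 3 more, these are log2 signals in the control-labelled arrays, replicates 1 to 3, and then in the mutant-labelled arrays.

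*Fgf15*, a secreted ligand made by neural retinal progenitors and the mouse counterpart of human FGF19, varied most. Its log2 signal came to 10.54, 8.23 and 9.76 in the 3 control-labelled arrays and 10.26, 9.77 and 6.78 in the 3 mutant-labelled arrays. The groups overlapped, and the lowest array of each group lay far below the other two. The highest array was 13.5-fold above the lowest over all 6, with 4.96-fold among the arrays labelled control and 11.1-fold among those labelled mutant. The pooled SD within groups was 1.57 on the log2 scale, and only 2 of the 19938 genes, *Xist* and the lens crystallin *Cryaa*, had a larger one. The log2 difference was -0.57 (SE 0.91, 95% confidence interval -2.69 to 1.54, adjusted p = 0.99 from limma). Without mutant replicate 3 it was 0.50, so that 1 array set its sign.

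The highest and lowest pairs of arrays in *Fgf15* were also those of most retinal markers. Control replicate 1 and mutant replicate 1 were the highest for *Fgf15*, and control replicate 2 and mutant replicate 3 the lowest. These same pairs were highest and lowest for 545 of all 19938 genes (2.73%). Among the FGF pathway genes they were so for 4 of the 36 others: the ligands *Fgf9*, *Fgf3*, *Fgf13* and *Fgf8*. Among retinal progenitor markers it was 7 of 8 measured (*Atoh7*, *Hes5*, *Neurog2*, *Rax*, *Six3*, *Six6* and *Sox2*, all but *Notch1*), and among markers of retinal neurons and photoreceptor precursors 6 of 8 (*Crx*, *Elavl3*, *Elavl4*, *Isl1*, *Stmn2* and *Tubb3*). It was 0 in the lists of RPE, lens, surface epithelium, mesenchyme, endothelium, melanocytes and muscle. Since the pairs were taken from *Fgf15* itself, these counts are a description with no test.

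The retinal progenitor markers had a mean log2 signal of 7.17, 6.11 and 6.64 in the 3 control-labelled arrays and 6.89, 6.60 and 5.87 in the 3 mutant-labelled arrays. *Rax*, a transcription factor of the early eye field and retina, was at 7.43, 5.64 and 6.64 and at 6.88, 6.51 and 4.87. The neuronal markers had means of 6.17, 4.74 and 5.59 and of 5.93, 5.53 and 4.67. Both lists overlapped between the groups and had 0 genes at an unadjusted p under 0.05 in limma. *Ptf1a* and *Nrl* were below the array's median on all 6 arrays. The 12 RPE markers had means of 7.22, 7.46 and 7.57 and of 7.52, 7.61 and 7.61, lowest on control replicate 1, where *Fgf15* was highest. The lens markers had means of 5.05, 5.0 and 5.19 and of 5.39, 4.68 and 6.22. These means were highest on mutant replicate 3, where *Fgf15* was lowest, and next on mutant replicate 1, where *Fgf15* was among the highest. With the mean of the 16 retinal markers as a covariate, a fit added after the values were seen, the log2 difference of *Fgf15* was -0.19 (SE 0.27, 95% confidence interval -0.82 to 0.44, adjusted p = 0.97 from limma). The part of retinal cells in the *Fgf15* signal was not tested.

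**Figure D2:**
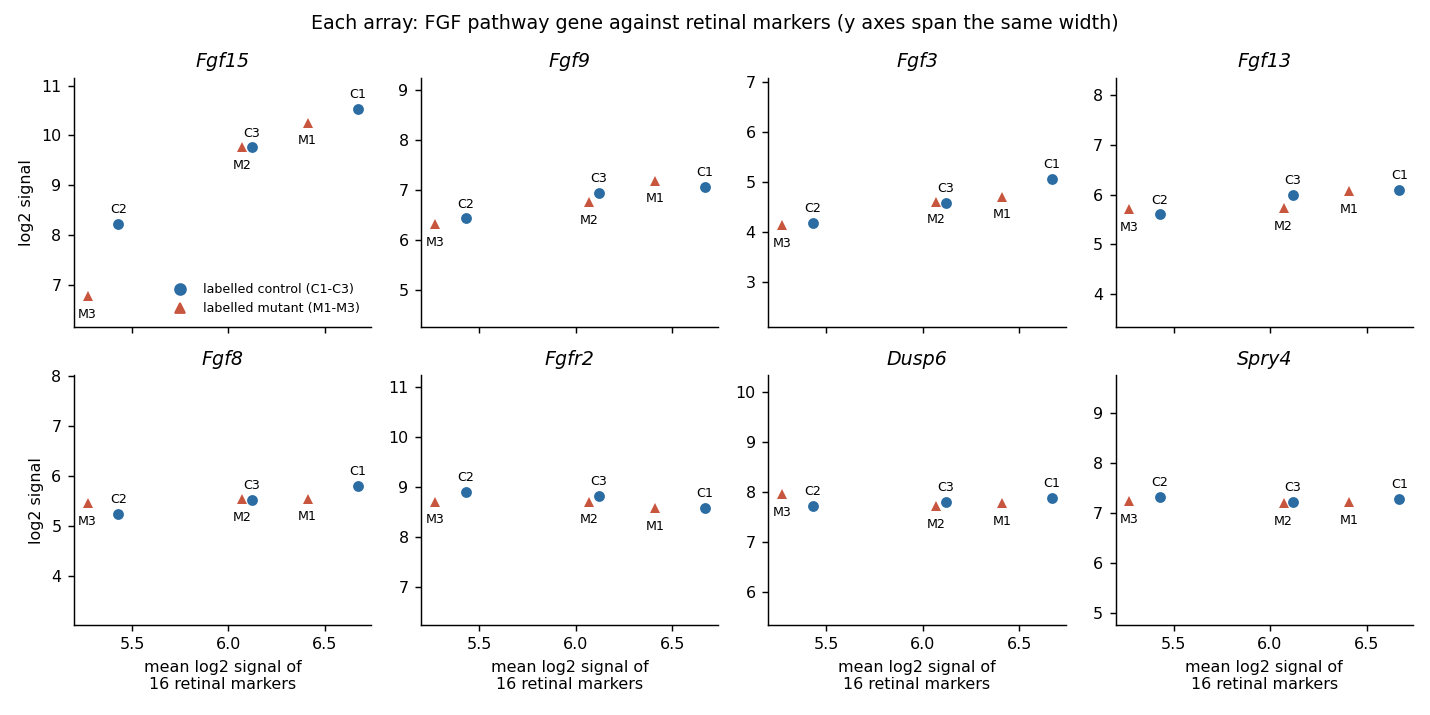
Log2 signal of 8 FGF pathway genes (y axes, each spanning the same width) against the mean log2 signal of 16 retinal markers (x axis), 1 point per array, circles for arrays labelled control (C1 to C3) and triangles for arrays labelled mutant (M1 to M3). *Fgf15* ranges from 6.78 on M3 to 10.54 on C1, the arrays with the lowest (5.27) and highest (6.67) retinal marker mean, while *Fgfr2*, *Dusp6* and *Spry4* vary little. The 8 genes are a selection and do not stand for all receptors and feedback targets. *Etv5*, not shown, was highest on C1 (6.53) and M1 (6.58).

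*Fgf2*, which like *Fgf9* can act on RPE fate, did not have the highest and lowest pairs of *Fgf15*. The 4 ligands that had them include *Fgf9* and *Fgf8*. The order within a pair could differ, and the groups overlapped in all 4. *Fgf9* had log2 signals of 7.06, 6.43 and 6.95 in the 3 control-labelled arrays and 7.19, 6.76 and 6.32 in the 3 mutant-labelled arrays, a difference of -0.06 (SE 0.23, 95% confidence interval -0.59 to 0.48, adjusted p = 0.99). Its pooled SD of 0.39 was exceeded by 0.747% of genes. *Fgf8*, an early patterning signal of brain and eye, was at 5.80, 5.23 and 5.52 and at 5.54, 5.53 and 5.45, a difference of -0.01 (SE 0.13, adjusted p = 1.0). *Fgf13* belongs to the intracellular FGFs, which bind sodium channels and are not secreted. It was at 6.09, 5.60 and 5.99 and at 6.07, 5.73 and 5.70, a difference of -0.06 (SE 0.14, adjusted p = 0.99). *Fgf3*, a signal in inner ear development, was at 5.06, 4.18 and 4.58 and at 4.71, 4.61 and 4.13, above the array's median on 1 array only. In RefSeq's gene order its neighbours are *Fgf4* and then *Fgf15*, with no other coding gene between the 3, and the order of the arrays in *Fgf4* was different (4.65, 4.14 and 4.35, and 4.25, 4.44 and 4.41).

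The other intracellular FGFs gave the ligands with the smallest p, and they lay on opposite sides. *Fgf14* had log2 signals of 5.02, 4.87 and 5.07 in the 3 control-labelled arrays and 4.64, 4.73 and 4.41 in the 3 mutant-labelled arrays. Every array labelled mutant was below every array labelled control, but all lay near the array's median, 4.89 for the whole table, and it was above its own array's median on 3 arrays only. The log2 difference was -0.39 (SE 0.09, 95% confidence interval -0.61 to -0.17, unadjusted p = 0.00332, adjusted p = 0.30 from limma), the largest in size among the 37 genes after *Fgf15*. *Fgf12* was at 5.08, 4.82 and 5.10 and at 5.33, 5.13 and 5.25. Here every array labelled mutant was above every array labelled control, and the log2 difference was 0.24 (SE 0.09, 95% confidence interval 0.02 to 0.45, unadjusted p = 0.0331, adjusted p = 0.74). *Fgf11* was at 5.84, 5.95 and 5.91 and at 5.94, 5.77 and 5.86, with overlapping groups and a difference of -0.05 (SE 0.07, adjusted p = 0.99). Over all alternatives, the methods' t-test included, the adjusted p ranged from 0.12 to 0.79 for *Fgf14* and from 0.43 to 1.0 for *Fgf12*.

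The mean of the 7 surface epithelium markers also separated the groups. This mean log2 signal was 7.58, 7.31 and 7.51 in the 3 control-labelled arrays and 8.19, 7.80 and 7.95 in the 3 mutant-labelled arrays, so the groups did not overlap. Of the 7 markers, 4 were higher at an unadjusted p under 0.05, beside 3.52% of all genes, and 0 at an adjusted p. None was below the array's median on all 6 arrays. The markers did not move alike, with log2 differences from 0.02 (*Trp63*) to 1.11 (*Krt6a*). The RPE list had 2 genes higher at an adjusted p under 0.05, *Tyrp1* and the retinoid-binding *Rlbp1* (log2 difference 1.0, SE 0.11), and 1 lower, the thyroid hormone and retinol carrier *Ttr* (-2.10, SE 0.13). The part of these cells in the values of *Fgf12*, *Fgf14* and *Fgfr3* was not tested.

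The remaining ligands above the array's median did not separate the groups. *Fgf18*, a growth signal of bone and cartilage, had log2 signals of 7.89, 7.71 and 8.03 in the 3 control-labelled arrays and 7.93, 8.06 and 8.15 in the 3 mutant-labelled arrays, a difference of 0.17 (SE 0.09, 95% confidence interval -0.05 to 0.39, adjusted p = 0.91). *Fgf7*, which mesenchyme makes for epithelia, was at 5.93, 6.17 and 5.94 and at 5.86, 5.89 and 6.18, a difference of -0.03 (SE 0.11, adjusted p = 0.99). *Fgf2*, the ligand held in the matrix that turns chick RPE into retina, was at 5.70, 5.62 and 5.95 and at 5.70, 5.63 and 5.87. Its difference was -0.02 (SE 0.10, 95% confidence interval -0.26 to 0.21, adjusted p = 0.99), so the fitted interval holds no difference of more than 0.26 in size.

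*Fgf5*, which ends the growth phase of hair, was among the ligands with the smallest p although below the array's median on every array. It was at 4.63, 4.38 and 4.48 and at 4.26, 4.40 and 4.30, with overlapping groups and a difference of -0.17 (SE 0.08, unadjusted p = 0.0565, adjusted p = 0.84). The other 11 ligands were *Fgf1*, *Fgf3*, *Fgf4*, *Fgf6*, *Fgf10*, *Fgf16*, *Fgf17*, *Fgf20*, *Fgf21*, *Fgf22* and *Fgf23*. Their log2 signals lay between 3.56 (*Fgf21*) and 5.12 (*Fgf22*), their differences between -0.13 (*Fgf21*) and 0.06 (*Fgf17*), and their adjusted p-values between 0.95 and 0.99. At such low signals an array shows little of a transcript's change, so a difference in these ligands may not have been detectable. In all, 18 of the 22 ligand differences were below 0 and 4 above it, where 49.6% of all genes were above 0.

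All 5 receptors were above the array's median on every array, and their differences were small. The 95% confidence intervals of the 5 lay between -0.34 and 0.21. *Fgfr1*, a tyrosine kinase receptor found in many embryonic tissues, had log2 signals of 8.96, 9.01 and 8.98 in the 3 control-labelled arrays and 9.06, 9.05 and 9.10 in the 3 mutant-labelled arrays. The groups did not overlap, with a log2 difference of 0.08 (SE 0.05, 95% confidence interval -0.04 to 0.21, adjusted p = 0.94 from limma) that is a fold of 1.06. Its pooled SD of 0.03 was among the smallest, with 97.9% of genes having a larger one. *Fgfr2*, whose splice forms divide ligands between epithelium and mesenchyme, was at 8.59, 8.90 and 8.83 and at 8.58, 8.71 and 8.71, a difference of -0.11 (SE 0.09, 95% confidence interval -0.31 to 0.10, adjusted p = 0.97). The splice forms were not told apart by this probe set value.

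*Fgfr3*, best known as a brake on bone growth, was lower on every array labelled mutant (6.48, 6.41 and 6.46) than on any array labelled control (6.49, 6.65 and 6.73). The groups were separated by 0.01 at their nearest arrays, 6.49 and 6.48, and the log2 difference was -0.17 (SE 0.07, 95% confidence interval -0.34 to 0.00, unadjusted p = 0.0462, adjusted p = 0.81 from limma). *Fgfr4*, the receptor that mediates FGF19 signals in liver, was at 6.64, 6.71 and 6.55 and at 6.69, 6.52 and 6.73, a difference of 0.01 (SE 0.08, adjusted p = 0.99). *Fgfrl1*, a receptor without a kinase domain, was at 6.96, 6.96 and 7.07 and at 6.91, 6.95 and 7.11, a difference of -0.01 (SE 0.07, adjusted p = 1.0). Both had overlapping groups. The adjusted p of *Fgfr3* ranged from 0.42 to 1.0 over the alternatives.

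**Figure D3:**
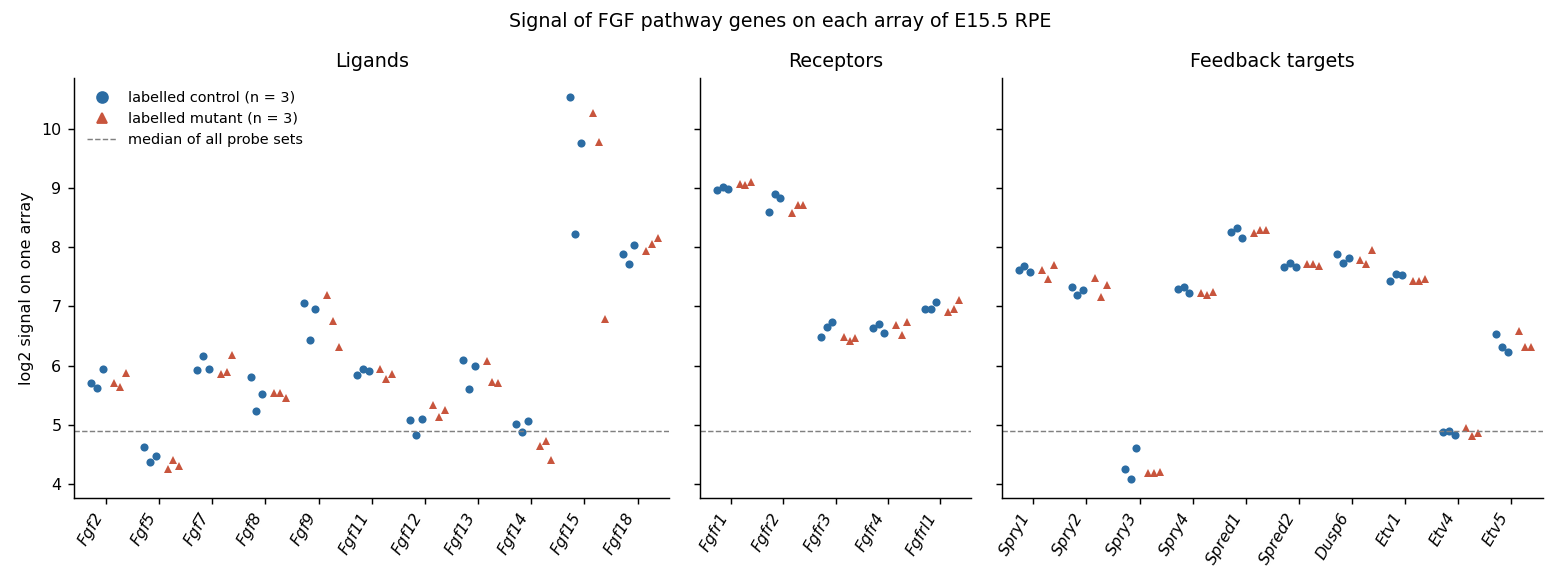
Log2 signal (y axis) on each array for 11 ligands, 5 receptors and 10 feedback targets (x axis), with circles for the 3 arrays labelled control and triangles for the 3 arrays labelled mutant, in the order of their replicate numbers; the dashed line is the median of all probe sets, 4.89. *Fgf15* spreads from 6.78 to 10.54, while the receptors and most feedback targets lie close together across all 6 arrays.

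The feedback targets, transcripts often used as a readout of ERK activity, were measured above the array's median for 8 of 10 genes, and none separated the groups. Their 95% confidence intervals lay between -0.40 and 0.28, and their median pooled SD was 0.078, beside 0.139 for the ligands and 0.090 for all genes. The part of cells other than RPE in the signals of the feedback targets was not tested. *Dusp6*, the phosphatase that removes phosphate from ERK, had log2 signals of 7.88, 7.73 and 7.81 in the 3 control-labelled arrays and 7.78, 7.72 and 7.96 in the 3 mutant-labelled arrays. Its log2 difference was 0.01 (SE 0.08, 95% confidence interval -0.17 to 0.20, adjusted p = 0.99 from limma). The groups overlapped. Mutant replicate 3 (7.96) and control replicate 1 (7.88), the lowest and the highest array for *Fgf15*, were both above the other arrays for *Dusp6*. The order of the arrays was not the same in all feedback targets. *Etv5* was highest on control replicate 1 (6.53) and mutant replicate 1 (6.58), the highest pair for *Fgf15*, and so was its second probe set (6.39 and 6.47).

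The Sprouty proteins inhibit signalling from receptor to ERK. *Spry1* was at 7.61, 7.68 and 7.58 and at 7.62, 7.47 and 7.70, a difference of -0.03 (SE 0.07, adjusted p = 0.99). *Spry2* was at 7.32, 7.20 and 7.28 and at 7.48, 7.15 and 7.36, a difference of 0.06 (SE 0.09, adjusted p = 0.99). *Spry4* was at 7.29, 7.32 and 7.22 and at 7.22, 7.20 and 7.24, a difference of -0.06 (SE 0.06, 95% confidence interval -0.19 to 0.07, adjusted p = 0.99). The groups overlapped for each of them, and the 6 arrays of *Spry4* lay within 0.11 of each other. *Spry3* was below the array's median on every array, at 4.25, 4.09 and 4.60 and at 4.18, 4.18 and 4.20, with a difference of -0.13 (SE 0.12, adjusted p = 0.99). The Spred proteins, relatives of Sprouty that also restrain the pathway, were steady. *Spred1* was at 8.26, 8.32 and 8.15 and at 8.24, 8.29 and 8.29, a difference of 0.03 (SE 0.06, adjusted p = 0.99). *Spred2* was at 7.66, 7.74 and 7.66 and at 7.72, 7.72 and 7.68, a difference of 0.02 (SE 0.05, adjusted p = 0.99), and its second probe set differed by -0.02 (SE 0.08).

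*Etv1*, *Etv4* and *Etv5* encode the ETS transcription factors of the PEA3 group, which act at the end of the pathway. *Etv1* was at 7.43, 7.55 and 7.53 and at 7.43, 7.42 and 7.47, a difference of -0.07 (SE 0.06, 95% confidence interval -0.20 to 0.07, adjusted p = 0.98). Its second probe set gave -0.14 (SE 0.07, adjusted p = 0.90), in the same direction. *Etv5* was at 6.53, 6.31 and 6.23 and at 6.58, 6.31 and 6.31, a difference of 0.04 (SE 0.10, adjusted p = 0.99), with 0.11 (SE 0.11) from its second probe set. The groups overlapped for both. *Etv4* lay at the array's median, at 4.87, 4.90 and 4.82 and at 4.94, 4.81 and 4.86, a difference of 0.01 (SE 0.06, adjusted p = 0.99).

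**Figure D4:**
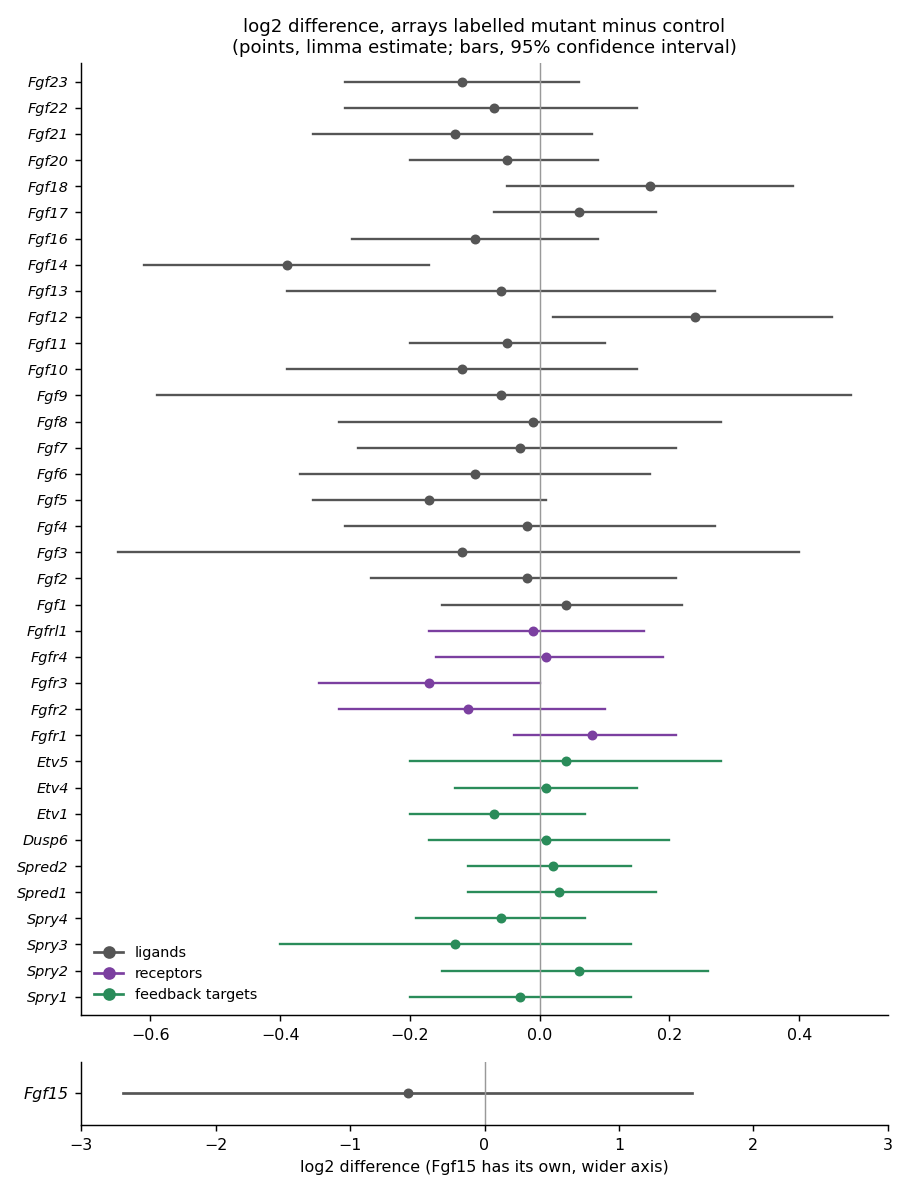
Log2 difference (x axis), mutant-labelled minus control-labelled arrays, of each of the 37 genes (y axis), with points for limma's estimate and bars for its 95% confidence interval, and *Fgf15* on a wider axis of its own. The intervals of *Fgf12* (0.02 to 0.45) and *Fgf14* (-0.61 to -0.17) lie off 0 before adjustment for the number of genes, that of *Fgfr3* (-0.34 to 0.00) ends at 0 with an unadjusted p of 0.0462, and that of *Fgf15* runs from -2.69 to 1.54.

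Other genes of the pathway were taken from 3 lists of its parts outside the 37 genes. Of 28 co-receptors and extracellular modulators, 27 were measured, and 0 were higher or lower at an adjusted p under 0.05, with a median log2 difference of 0.03 and a range from -0.21 to 0.13. At an unadjusted p under 0.05, 2 of them were lower, beside 2.81% of all genes, and 0 higher, beside 3.52%. These were *Gpc6*, a heparan sulfate proteoglycan, at 8.44, 8.51 and 8.59 and at 8.38, 8.32 and 8.34 (difference -0.17, SE 0.06, adjusted p = 0.68), and *Flrt2*, a membrane protein with leucine-rich repeats, at 8.77, 8.85 and 8.94 and at 8.65, 8.68 and 8.69 (difference -0.18, SE 0.06, adjusted p = 0.69). The groups did not overlap for these and *Flrt1* in the lower direction (3 of 27, beside 5.17% of all genes), nor for *Sdc3* in the higher direction (1 of 27, beside 6.23%). The difference was -0.16 for *Flrt1* (SE 0.07, adjusted p = 0.83) and 0.08 for *Sdc3* (SE 0.05, adjusted p = 0.95).

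Of 22 genes that relay the signal from receptor to ERK, 16 were measured, with 0 at an unadjusted p under 0.05 and a median log2 difference of 0.02 (range from -0.08 to 0.14). The smallest p-values were those of the adaptor *Shc1* (difference 0.14, SE 0.07, adjusted p = 0.88) and the GTPase *Nras* (0.10, SE 0.06, adjusted p = 0.93). The groups did not overlap for *Shc1* and *Nras*, both higher, beside 6.23% of all genes. All 13 other ERK-responsive genes were measured, again with 0 at an unadjusted p under 0.05, and their median log2 difference was 0.06 (range from -0.15 to 0.14). The smallest p-values were those of the immediate early gene *Ier2* (difference 0.14, SE 0.08, adjusted p = 0.91) and the transcription factor *Myc* (0.13, SE 0.09, adjusted p = 0.95). In this list the groups did not overlap for *Ier2* and *Egr1* (difference 0.07, SE 0.05, adjusted p = 0.97), both higher, beside the same 6.23%. *Ccnd1* of this list, at 10.52, 9.65 and 10.07 and at 10.38, 9.90 and 9.50, had the highest and lowest pairs of arrays of *Fgf15*. So did *Gpc2* of the co-receptor list, at 7.67, 6.99 and 7.28 and at 7.57, 7.17 and 7.06. These pairs were found for 2.73% of all genes, and the part of retinal cells in both signals was not tested.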

How the data were processed

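Gene expression in RPE of 6 pooled samples, 3 labelled control and 3 labelled mutant, was measured with the Mouse Gene 1.0 ST array of Affymetrix, which carries probes spread over each transcript. The authors deposited a log2 signal for each of 35556 probe sets on each array, and these log2 values were used as they stand. The submitters' processing notes list Partek as the software. Which version, background correction and probe summarization were used was not given in the sources used here. A second table of 100 entries holds group means, p-values, ratios and fold changes of the authors' own comparison; only its group means were used, to check the group names. The platform annotation gives 1 gene symbol to 21789 probe sets, several to 1621 and none to 12146. All 23410 named probe sets were fitted without covariates by lmFit and eBayes of limma 3.58.1, run in R 4.3.3. All tests were two-sided, and genes were called at a Benjamini-Hochberg adjusted p under 0.05. Adjusted p-values come from limma, and ranges over the alternatives include the methods' t-test. The fit was tested on simulated data. The t-test that the methods name for all data is called the methods' t-test.

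The sample labels gave each array's condition and replicate number. The labels and methods describe each tube as a biological repeat. Signals were given on each array for all receptors, all feedback targets, ligands above the array's median on all 6 arrays, and the 4 genes with the smallest p in each class, 26 of the 37 genes in all. Of each further pathway list, up to 4 genes at an adjusted p under 0.05 were named, or the 2 with the smallest p. *Xist*, *Cryaa*, *Rax*, *Tyr*, *Tyrp1*, *Pmel*, *Rlbp1*, *Ttr*, *Krt6a*, *Trp63*, *Flrt1*, *Sdc3*, *Gpc2*, *Egr1*, *Ccnd1*, *Fgf3* and *Fgf4* were added to the named genes after looking at their values. The 37 genes, the pathway and marker lists and the tests were chosen with earlier results of these data known. All 37 symbols were found in a RefSeq gene table, and promoters came from RefSeq (GRCm38.p6). The alternatives were testing all probe sets, leaving out dim ones, quantile normalization, a trend and robust fit, array weights, means of a gene's probe sets, the replicate number as a block, the methods' t-test, each array left out in turn, and, added later, the retinal marker mean as a covariate.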

Additional observations from a re-analysis of the deposited data

How the results depend on the processing

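No gene of the 37 passed an adjusted p of 0.05 under any alternative, and 1 to 4 had an unadjusted p under 0.05, against 3 as reported. Over all named probe sets, 66 were higher and 19 lower, against 35 and 6 with all probe sets tested and 0 and 0 by the methods' t-test. Other alternatives gave more: 90 higher and 37 lower with the retinal marker covariate, 86 and 24 with a trend and robust fit, and 73 and 23 with array weights. Leaving out 1 array gave 23 to 54 higher and 3 to 31 lower. Without control replicate 3 or mutant replicate 1, 2 or 3 there were 34, 38, 23 and 28 higher. There were 31, 5 and 3 lower without control replicates 1, 2 and 3, and 10, 3 and 3 lower without mutant replicates 1, 2 and 3. With the replicate number as a block (replicate block), 63 were higher, 14 lower and 0 of the 37 genes called. Same-numbered arrays correlated at 0.37, -0.06 and 0.07 in their deviations from the group means. Differently numbered arrays correlated at -0.44 to 0.37, the highest being control replicate 2 with mutant replicate 3. The pairs at 0.37, control replicate 1 with mutant replicate 1 and control replicate 2 with mutant replicate 3, were also the high and low pairs of most retinal markers. These correlations thus cannot show which tubes shared a litter, and this was not given. The main fit did not pair the samples by number.

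With 1 array left out, the median difference ranged from -0.12 to -0.01 for ligands, -0.07 to 0.01 for receptors and -0.03 to 0.03 for feedback targets. Of the log2 differences of single genes, *Dusp6* was -0.01 after quantile normalization, and *Fgf8* was 0.03 and *Fgf9* 0.04 with the retinal covariate, signs opposite to those reported. Leaving out 1 array turned the sign of 15 genes, with ranges of -0.09 to 0.07 for *Fgf2*, -0.14 to 0.04 for *Fgf7*, -0.16 to 0.13 for *Fgf8*, -0.27 to 0.16 for *Fgf9*, -0.21 to 0.04 for *Fgf13*, -1.23 to 0.50 for *Fgf15*, -0.03 to 0.08 for *Fgfr4*, -0.07 to 0.03 for *Fgfrl1*, -0.08 to 0.03 for *Spry1*, -0.02 to 0.15 for *Spry2*, -0.24 to 0.01 for *Spry3*, -0.01 to 0.07 for *Spred1*, -0.06 to 0.06 for *Dusp6*, -0.03 to 0.04 for *Etv4* and -0.05 to 0.13 for *Etv5*. *Fgf12*, *Fgf14*, *Fgfr1* and *Fgfr3* kept their sign throughout. Their groups did not overlap, so leaving out 1 array could not have turned it. *Fgf5*, *Fgf18*, *Fgfr2*, *Spry4* and *Etv1* also kept their sign. Apart from the number of genes or arrays in a fit, the cause of each change was not tested. Leaving out dim probe sets kept 24 of the 37 genes, so dim ligands and the feedback targets *Spry3* and *Etv4* have no value under it. Signals near the array's median limit what can be seen of *Fgf12*, *Fgf14* and *Etv4*.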
